A study of Mus musculus with 2 samples.

Results

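Chemokines are small secreted proteins that guide migrating cells, and their receptors are membrane proteins that signal through G proteins or, in the atypical group, take up or present chemokines without that signal. The genes were the rows of a count table from TUBO cells whose symbols name a Ccl, Cxcl, Cx3cl or Xcl ligand, a Ccr, Cxcr, Cx3cr or Xcr receptor, an Ackr atypical receptor or Ccrl2. In all, 62 of 31017 genes met this name rule, made up of 39 ligands, 18 signalling receptors and 5 atypical receptors (Ackr1 to Ackr4 and Ccrl2). The rule itself uses no measured value. TUBO is a mouse mammary cancer line, known to come from a tumour of a mouse that carried rat Her2/neu as a transgene. They had no treatment and were grown flat on plastic in medium with serum and sequenced as 1 group of 2 libraries, replicates 1 and 2, with 35453278 and 34098259 counts. No condition was compared with another, and no label tells whether each library had a culture of its own. Every p-value and SD here therefore measures the spread between these 2 libraries, which may be technical. TUBO is a single line.

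Ligands are named by the spacing of their first cysteines. CXC ligands with a Glu-Leu-Arg motif attract neutrophils through Cxcr2, CC ligands attract monocytes, eosinophils, lymphocytes or dendritic cells, and Cx3cl1 and Cxcl16 are made as membrane proteins on mucin-like stalks from which proteases release them. Mammary tumour cells are known both as a source of neutrophil and monocyte attractants and, through Cxcr4, as cells that respond to Cxcl12 of stroma and distant organs. Many inflammatory chemokine genes are known targets of the transcription factor NF-kB, which binds kappaB sites in their promoters.

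The promoters below are shown because Cxcl genes of a single cluster that carry the same letters differed widely in level, as given further on. Each is the 250 bases before the RefSeq start of the gene (GRCm38.p6, the reference mouse, not read from TUBO cells), 5' to 3', with matches on either strand to a kappaB pattern (GGG, any 2 bases, TTTCC) in capitals. Cxcl1 is chr5:90890995-90891244 (plus strand), Cxcl2 chr5:90903649-90903898 (plus), Cxcl3 chr5:90785851-90786100 (plus), Ccl20 chr1:83116516-83116765 (plus), Ccl9 chr11:83578637-83578886 (minus) and Cx3cl1 chr8:94771930-94772179 (plus).
Cxcl1: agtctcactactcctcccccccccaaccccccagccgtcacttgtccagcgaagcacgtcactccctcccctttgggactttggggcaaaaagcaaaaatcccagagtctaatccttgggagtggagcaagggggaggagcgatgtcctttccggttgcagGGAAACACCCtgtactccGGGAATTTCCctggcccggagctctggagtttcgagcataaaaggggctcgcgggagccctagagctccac
Cxcl2: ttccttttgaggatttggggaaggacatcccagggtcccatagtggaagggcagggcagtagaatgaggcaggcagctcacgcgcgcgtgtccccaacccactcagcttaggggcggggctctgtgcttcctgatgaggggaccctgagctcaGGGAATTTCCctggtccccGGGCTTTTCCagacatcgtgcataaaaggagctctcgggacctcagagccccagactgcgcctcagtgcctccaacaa
Cxcl3: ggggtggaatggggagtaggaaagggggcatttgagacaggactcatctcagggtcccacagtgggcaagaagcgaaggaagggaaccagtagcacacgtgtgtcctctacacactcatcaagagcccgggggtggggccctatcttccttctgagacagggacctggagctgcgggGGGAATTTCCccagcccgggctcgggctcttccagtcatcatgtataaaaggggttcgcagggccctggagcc
Ccl20: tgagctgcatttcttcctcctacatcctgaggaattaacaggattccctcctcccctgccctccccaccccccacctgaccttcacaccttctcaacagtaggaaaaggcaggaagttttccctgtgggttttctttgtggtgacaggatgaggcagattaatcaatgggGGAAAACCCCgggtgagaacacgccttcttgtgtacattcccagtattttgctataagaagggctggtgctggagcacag
Ccl9: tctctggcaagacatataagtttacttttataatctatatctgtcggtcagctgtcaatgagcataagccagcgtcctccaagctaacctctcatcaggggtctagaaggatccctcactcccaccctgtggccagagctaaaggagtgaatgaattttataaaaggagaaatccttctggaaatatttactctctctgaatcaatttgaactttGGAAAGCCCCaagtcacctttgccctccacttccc
Cx3cl1: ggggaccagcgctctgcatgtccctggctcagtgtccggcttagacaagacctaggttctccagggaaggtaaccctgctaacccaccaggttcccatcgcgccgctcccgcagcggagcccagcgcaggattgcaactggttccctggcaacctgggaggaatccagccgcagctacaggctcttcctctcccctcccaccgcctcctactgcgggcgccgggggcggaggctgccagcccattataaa

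Levels are given as CPM (counts per 1000000 counts of the library, its total scaled by a TMM factor) for each gene and, where genes are compared with each other, as TPM (the same scale after dividing each count by exon length). A gene was called detected where each library reached 1 CPM. Of the 62 genes, 12 were detected, 20 had counts below that level and 30 had no count. By the same call 37.7% of all 31017 genes and 50.5% of protein-coding genes were detected, against 19.4% of the chemokine system genes. No count was found for 41.0% of all genes. Detection covered 8 of 39 ligands, 2 of 18 signalling receptors and 2 of 5 atypical receptors. Each library reached 10 CPM for 5 genes (Cx3cl1, Ccrl2, Cxcr4, Cxcl1 and Ccl25), against 29.0% of all genes. Where no read was counted, the level could still be as high as 0.0842 CPM (replicate 1) or 0.0885 CPM (replicate 2), which is the worth of 3 counts and covers counting error only.

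**Figure D1:**
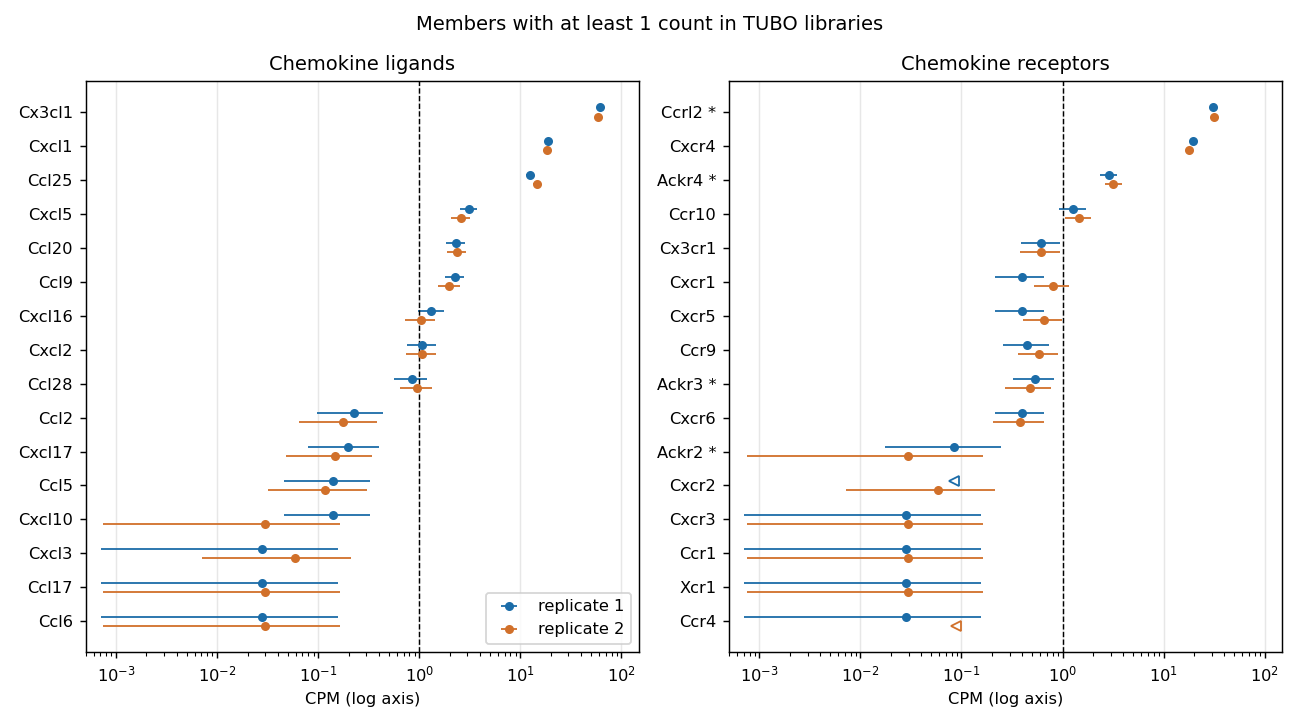
Level of each ligand (left) and receptor (right) with at least 1 count, in CPM on a log axis. Points are replicates 1 and 2, bars are exact 95% Poisson intervals of the count, open triangles mark the worth of 3 counts where a library had 0, asterisks mark atypical receptors and the dashed line is 1 CPM. Of the ligands, 3 stand above 10 CPM and 5 lie between 1 and 5 CPM.

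The membrane-bound ligand Cx3cl1 (fractalkine, which attracts and holds monocytes and natural killer cells that carry Cx3cr1) was the most abundant of the 62 genes in CPM. It had 62.0 CPM in replicate 1 and 59.4 CPM in replicate 2, from 2210 and 2013 counts (60.7 ± 1.87 CPM, SD, n = 2). In TPM it stood at 58.9 ± 2.32, above 89.6% of the 30483 genes with a length. The gene (ENSMUSG00000031778.13) lies on chromosome 8 from 94772009 to 94782427 (GRCm38), between Ccl22 and Ccl17, both ligands of Ccr4. Those neighbours were at or below the floor, with 0 counts for Ccl22 and 1 count in each library for Ccl17. Cxcl16, the other membrane-bound ligand, reached 1.32 and 1.03 CPM in replicates 1 and 2. Cxcl16 shares 552 exonic bases with Zmynd15 on the opposite strand, which had 8 and 9 counts. Per length, Cx3cl1 was 40.2 ± 5.70 times as abundant as Cxcl16. The proteases that shed both ligands, Adam10 (501 ± 10.5 CPM) and Adam17 (111.5 ± 1.32 CPM), were abundant.

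Among the ligands, the neutrophil attractant Cxcl1 came next in CPM. It had 18.9 and 18.5 CPM in replicates 1 and 2 (675 and 627 counts). Cxcl5 had 3.09 and 2.56 CPM (110 and 87 counts), and Cxcl2 had 1.07 and 1.06 CPM (38 and 36 counts). The libraries were close for each of them, and the ranges of the 3 genes did not overlap. Cxcl3 had 1 and 2 counts, below the 3 counts of the floor, and Cxcl15, an attractant known from lung epithelium, had none. Per length, Cxcl1 was 6.63 ± 0.752 times as abundant as Cxcl5 (11.03 ± 1.25 times with principal transcript lengths) and 19.4 ± 0.270 times as abundant as Cxcl2. Cxcr2, the receptor of these ligands, had 0 and 2 counts, and Cxcr1 had 14 and 27.

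These genes share a stretch of chromosome 5 with the platelet chemokine genes Ppbp (1 count in each library) and Pf4 (no count), which the name rule leaves out. In chromosome order the mean levels were 2.83 CPM for Cxcl5, 0.0435 CPM for Cxcl3, 0 for Cxcl15, 18.7 CPM for Cxcl1 and 1.06 CPM for Cxcl2. Mthfd2l, a gene of mitochondrial folate metabolism that follows them, stood at 24.0 ± 0.395 CPM. Chemokine genes that were detected lay beside others with few counts or none. The transcripts of Cxcl2 and Cxcl3 share 5.8% and 4.2% of their 50-base windows with other genes, so how reads were assigned there is uncertain.

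**Figure D2:**
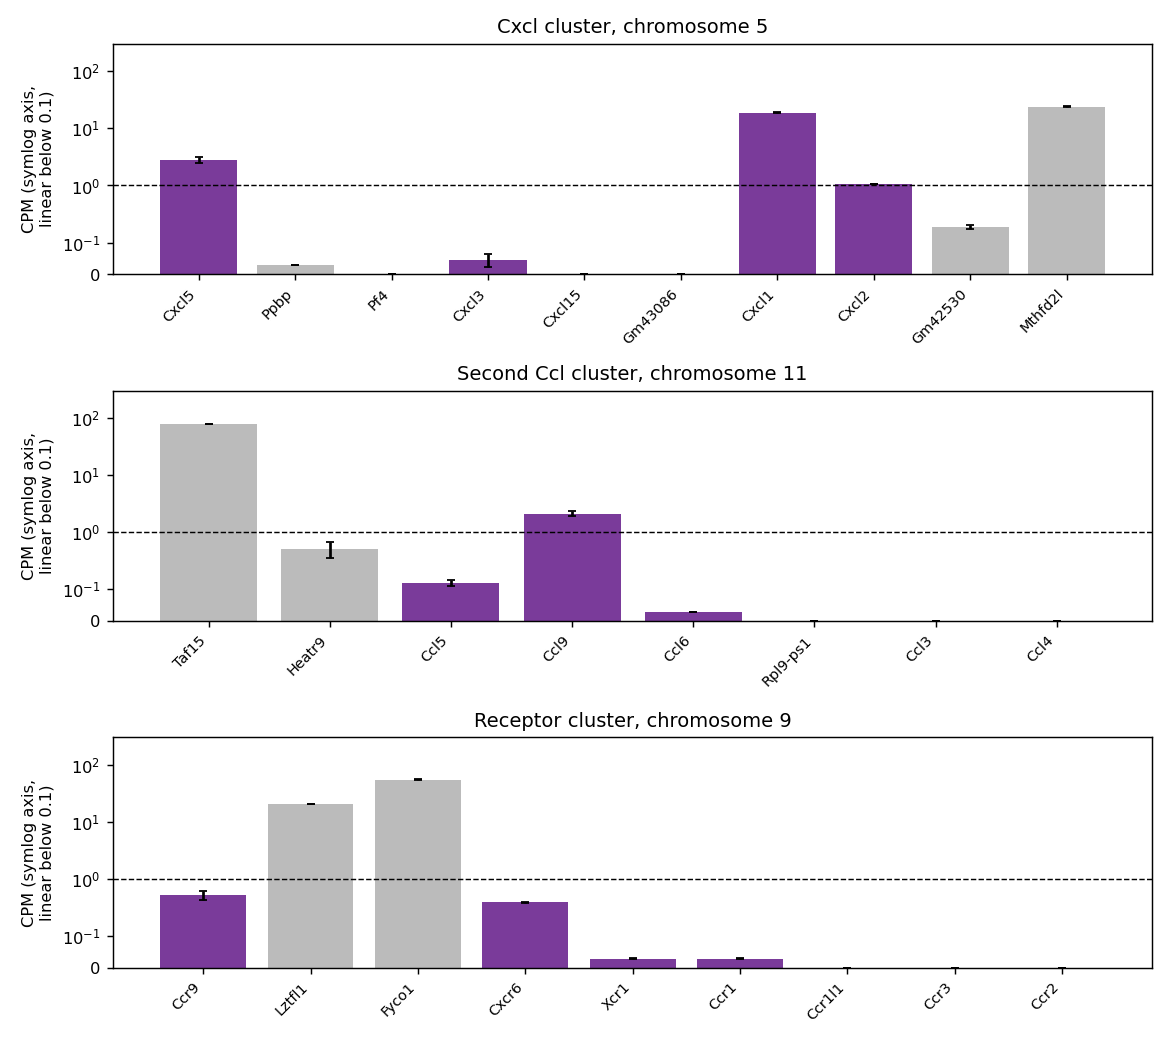
Mean CPM of genes in 3 chromosomal clusters, in chromosome order. Bars are means over 2 libraries with SD, purple for chemokine system genes and grey for others, on a symmetric log axis that is linear below 0.1 CPM, and the dashed line is 1 CPM. Purple bars pass the line for Cxcl5, Cxcl1, Cxcl2 and Ccl9, and for no gene drawn of the receptor cluster.

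GGGAATTTCC was present in the printed windows of Cxcl1 (71 to 62 bases before the start), Cxcl2 (97 to 88) and Cxcl3 (73 to 64), whose levels were 18.7, 1.06 and 0.0435 CPM. Cxcl1 and Cxcl2 each had a further match, GGAAACACCC at 89 to 80 and GGGCTTTTCC at 78 to 69. The kappaB pattern (GGG, any 2 bases, TTTCC) was found in 6 of the 46 chemokine system genes with a RefSeq promoter window (13.0%), against 1.65% of 27025 genes. The 6 were Cxcl1, Cxcl2, Cxcl3, Ccl20, Ccl9 and Ccr3, of which 4 were detected, against 9 of all 46. Whether matches go with level was not tested, and Cxcl1, Cxcl2 and Cxcl3 belong to a single cluster. Ccl20 (GGAAAACCCC) and Ccl9 (GGAAAGCCCC) matched on the opposite strand. Cx3cl1, the ligand highest in CPM, had no match to these letters in its window. That window ends at 94772179, past the start of the gene (94772009) in the annotation used for levels. By that annotation most of the window lies inside the gene, and bases further upstream were not searched.

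Of 10 letter patterns searched on both strands, 4 were forms of the kappaB site. The forms GGGANTTCC (3 genes), GGANNTTCC (8) and GGGNNNTCC (13) were present in 6.52%, 17.4% and 28.3% of the 46 genes, against 1.63%, 4.12% and 16.9% of all genes. Of these 3, 8 and 13 genes, 0, 3 and 5 were detected. GGANNTTCC overlaps the first pattern in Cxcl1, Cxcl2, Cxcl3 and Ccr3, and GGGNNNTCC overlaps it in Ccl20 and Ccl9. The AP-1 letters TGANTCA were in 6 of the 46 (13.0% against 7.82%), the interferon response pattern (GAAA, any 2 bases, GAAA) in 3 (6.52% against 3.46%) and TATAAA in 14 (30.4% against 14.3%). The cyclic AMP letters TGACGTCA were in none (1.77% of all genes), the C/EBP letters TTGCNNAA in 5 (10.9% against 10.8%) and the hypoxia letters ACGTG in 8 (17.4% against 18.5%). A match describes letters and is no evidence of binding, and Cxcl5, Cxcl16 and Ccr10 had no window to search.

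The other CXC ligands were near or below the floor. Cxcl10, induced by interferon, had 5 and 1 counts and its neighbour Cxcl9 had none, while Cxcl11 was not analysed here. Cxcl17, a mucosal ligand, had 7 and 5 counts. Cxcl12, which signals through Cxcr4, had no count, and the same held for Cxcl13 and Cxcl14.

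Among 25 CC ligands 3 were detected, Ccl25, Ccl20 and Ccl9. Ccl25, known from thymic and small intestinal epithelium, had 12.5 and 14.5 CPM in replicates 1 and 2 (447 and 491 counts). Its length is uncertain, since the annotation joins exons of 7445 bases while the principal transcript has 1058 bases. Its level was 6.92 ± 0.642 TPM by the first and 33.8 ± 3.20 TPM by the second. Exons of Ccl25 also overlap 204 bases of Elavl1 on the opposite strand (171 ± 4.47 CPM), and the part of such reads in its counts was not tested.

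Ccl20, which attracts lymphocytes and dendritic cells with Ccr6, had 2.30 and 2.36 CPM (82 and 80 counts). Ccl9, a rodent ligand of Ccr1, had 2.24 and 1.98 CPM (80 and 67 counts). Ccl28, a mucosal ligand that mammary epithelium makes in lactation, missed the call with 0.842 and 0.944 CPM (30 and 32 counts). The intervals of Ccl28 reached 1.20 CPM and 1.33 CPM in replicates 1 and 2, so its side of the line is not settled at this depth. It is also the gene just outside the call, followed by Cx3cr1 (0.618 CPM) and Cxcr1 (0.594 CPM). Just inside were Cxcl2 (1.06 CPM), Cxcl16 (1.18 CPM) and Ccr10 (1.35 CPM). The intervals of Cxcl2 and Cxcl16 in both libraries, and of Ccr10 in replicate 1, also reached below 1 CPM, with lower limits between 0.719 and 0.969 CPM, so their side of the line is not settled either.

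Of 7 CC ligands that attract monocytes and eosinophils 0 were detected, and 6 had no count. Ccl2, the main monocyte attractant, had 8 and 6 counts. In the cluster of 6 genes on chromosome 11 that begins with Ccl2, the others (Ccl7, Ccl11, Ccl12, Ccl8 and Ccl1) had none. In a second cluster on that chromosome Ccl9 was flanked by Ccl5 (5 and 4 counts), Ccl6 (1 count in each library), Ccl3 and Ccl4 (no count). Ccl24, Ccl26, Ccl22, Ccl19 and Xcl1 also had no count. The remaining genes without a count were Ccl21a, Ccl21b, Ccl21c, Ccl27, Ccl27a and Ccl27b. Of these, Ccl21b shares every window with another transcript, Ccl27b shares 98.1% and Ccl21a 71.6%. For Ccl19 the share is 52.0%, and Ccl27a also shares windows, so reads from them may have been left out and their 0 is uncertain.

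Among the signalling receptors Cxcr4 stood apart. It had 19.6 CPM in replicate 1 and 17.9 CPM in replicate 2 (699 and 607 counts). Its 39.6 ± 2.89 TPM made up 85.3 ± 3.16% of the summed TPM of all 18 signalling receptors. Ccr10, a receptor of Ccl27 and Ccl28, was the only other signalling receptor detected, at 1.26 and 1.44 CPM (45 and 49 counts). All exons of Ccr10 lie within the span of Cntnap1 on the opposite strand (6.18 ± 0.766 CPM), with no shared exon base.

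Below the line, 10 signalling receptors had counts and 6 had none. Cx3cr1 had 22 and 21 counts, Cxcr5 had 14 and 22, Ccr9 had 16 and 20, and Cxcr6 had 14 and 13. Each of these stood under 1 CPM in both libraries. Cxcr3, Ccr1 and Xcr1 had 1 count in each library, and Ccr4 had 1 in replicate 1. Among those with no count were Ccr2, Ccr3, Ccr6, Ccr7 and Ccr8, receptors that leukocytes use. Cxcr6 lies wholly within the span of Fyco1 (53.9 ± 1.14 CPM) on the opposite strand, and Cxcr5 shares 110 exonic bases with Bcl9l (222 ± 2.92 CPM), also on the opposite strand. Whether the counting used strand is not known here, and how far reads of such neighbours enter these low counts was not tested.

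The 5 atypical receptors summed to 49.0 ± 0.316 TPM, against 46.3 ± 1.67 TPM for the 18 signalling receptors (37.7 ± 0.419 against 32.4 ± 1.05 TPM with principal transcript lengths). Ccrl2, which binds chemerin without signalling, had 31.2 and 31.8 CPM (1111 and 1079 counts) and 48.5 ± 0.978% of the summed TPM of all 23 receptors. The gene spans 111054486 to 111057519 on chromosome 9 (GRCm38), and its exons share no window with another transcript. Rarres2, the gene of chemerin, had 0 and 9 counts, and Cmklr1, the signalling receptor of chemerin, had 1 in each library.

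Ackr4, which scavenges Ccl19, Ccl21 and Ccl25, had 2.86 and 3.18 CPM (102 and 108 counts). It sits within Acad11 on the opposite strand (38.3 ± 1.40 CPM), with 479 shared exonic bases. Ackr3, which takes up Cxcl12, had 19 and 16 counts. Ackr2, a scavenger of inflammatory CC ligands, had 3 and 1, and Ackr1 had none.

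Ordered by TPM, the detected genes ran Cx3cl1 (58.9), Ccrl2 (46.2), Cxcr4 (39.6), Cxcl1 (38.1), Ccl25 (6.92), Ccl20 (6.25), Cxcl5 (5.79), Ccr10 (2.99), Ccl9 (2.64), Ackr4 (2.14), Cxcl2 (1.96) and Cxcl16 (1.48). The library ranges of neighbours overlapped for Cxcr4 and Cxcl1, for Ccl20 and Cxcl5, and for Ccr10 and Ccl9, which therefore did not differ beyond their spread. Ranges of 2 values leave out counting error, so neighbours without overlap, such as Ackr4 and Cxcl2, are not thereby resolved. With principal transcript lengths Cxcl1 (52.0 ± 1.23 TPM) stood above Cx3cl1 (48.4 ± 1.82 TPM), so which of them leads depends on the length used. The summed ligand level was 125 ± 4.37 TPM, against 95.4 ± 1.36 TPM for all receptors, and Cx3cl1 and Cxcl1 held 47.0 ± 0.213% and 30.4 ± 0.284% of the ligand sum. With principal transcript lengths the sums were 155.3 ± 1.24 TPM for ligands, against 70.2 ± 0.626 TPM for receptors, and the shares of Cx3cl1 and Cxcl1 were 31.2 ± 0.924% and 33.5 ± 0.528%. Ccl25 held 5.54 ± 0.706% by union exon length and 21.8 ± 2.23% by principal transcript length.

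The medians lay below the floor and set no order of ligands and receptors. The median of log2(TPM + 1) was 0 for ligands and 0.09 for receptors in each library, a difference of -0.09 ± 0.0023. Over all genes with a length the median was 0.21. The receptor median was the level of Cxcr3, with 1 count in each library, below the 3 counts of the floor. Ligands whose 0 is uncertain were part of the ligand median. No count was found for 23 of 39 ligands, against 7 of 23 receptors. The smallest p of an exact two-sided sign test over 2 libraries is 0.5, and the test was not used.

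Ligands were next set beside receptors that are known to bind them, in a list of 40 pairs with signalling receptors and of Cxcl12 with Ackr3. Of these 40, 0 had both sides detected, 8 had the ligand alone, 5 had the receptor alone and 27 had neither. Detection of 8 of 39 ligands and 2 of 18 signalling receptors limits how many pairs can have both sides detected. Whether 0 is fewer than another pairing of these genes would give was not tested. Apart from Cxcl12 with Cxcr4, the pairs with the receptor alone were all of Ccr10, whose side of 1 CPM is not settled. Cx3cl1 was 112.5 ± 3.73 times as abundant per length as Cx3cr1. Ccl25 was 36.2 ± 3.30 times as abundant as Ccr9 and 3.23 ± 0.0838 times as abundant as its scavenger Ackr4, and these became 128.9 ± 11.8 and 10.1 ± 0.262 with principal transcript lengths. With 5 pairs of the scavenger Ackr4 added after its values were seen, both sides were detected in 1, Ccl25 with Ackr4. Ccl20 stood beside Ccr6, which had no count. In the other direction, Cxcl12 had no count beside 699 and 607 counts of Cxcr4, and Ccl27a and Ccl27b had none beside Ccr10. Genes outside the name rule, such as Mif, were not paired, so the list does not show whether other ligands of Cxcr4 are transcribed. In 2 pairs, Cx3cl1 with Cx3cr1 and Ccl28 with Ccr10, both sides passed a lower line of 0.5 CPM.

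**Figure D3:**
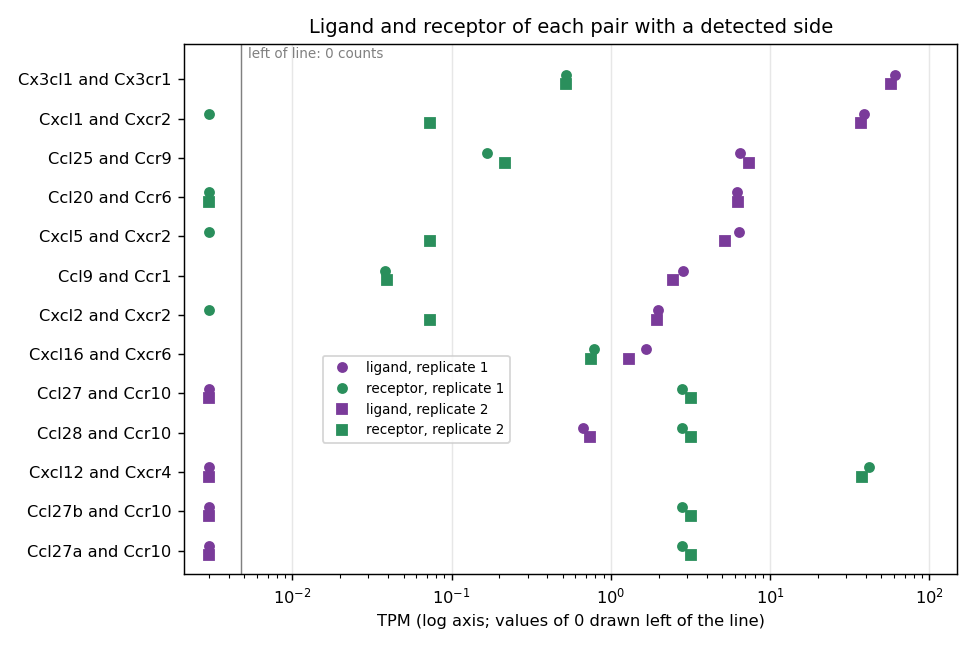
Level of the ligand (purple) and receptor (green) in each of the 40 listed pairs with a detected side, in TPM on a log axis. Circles are replicate 1 and squares replicate 2, and values of 0 are drawn left of the grey line. In the upper 8 pairs the ligand lies right of its receptor, and in the lower 5 the receptor lies right of its ligand.

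Partner genes of the system were checked with lists by known role. Of 13 NF-kB genes all were detected. Nfkb1 (142 ± 5.06 CPM) and Rela (131 ± 4.20 CPM) were highest in CPM. Per length, Rela (162 ± 6.61 TPM) and Nfkbia (125 ± 2.12 TPM) were highest, with Nfkb1 at 44.8 ± 1.98 TPM. Of 20 cytokine receptor and adaptor genes upstream of chemokine genes 19 were detected. The gp130 subunit Il6st (232 ± 0.495 CPM) and Il1rap (160.4 ± 1.19 CPM) were highest in CPM. Per length, Tnfrsf1a (208 ± 6.20 TPM) and Tlr3 (98.6 ± 4.04 TPM) were above Il6st (79.7 ± 0.514 TPM) and Il1rap (53.9 ± 0.861 TPM). The gene of this list not detected was the interleukin-1 receptor Il1r1, with 3 counts in each library. The tumour necrosis factor receptor Tnfrsf1a stood at 143.4 and 139.1 CPM in replicates 1 and 2. Detection over these lists was above the 37.7% of all genes and the 50.5% of protein-coding genes. The same held for each list of intracellular or surface partners below.

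Downstream of the receptors, 13 of 20 genes of G proteins, kinases and arrestins were detected, led by the inhibitory subunit Gnai2 (716 ± 21.6 CPM) and Gnb1 (310.5 ± 9.41 CPM). Pik3r5 and Rgs1, which are known mainly from blood cells, had no count.

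Of 14 genes of proteoglycans and heparan sulfate synthesis, which hold chemokines at the cell surface, 11 were detected. Sdc4 led with 1276 ± 34.1 CPM, followed in CPM by the sulfotransferase Ndst1 (250 ± 1.40 CPM). Per length, Sdc4 (1911 ± 67.4 TPM) was followed by Gpc4 (283 ± 15.4 TPM), with Ndst1 at 115 ± 1.63 TPM. Of 8 processing proteases 6 were detected, led by Adam10 and Ctsl (275 ± 4.87 CPM), while Dpp4, which trims several chemokines, had 0 and 1 counts and Mmp9 none. Among 7 chemokine-like genes outside the name rule 3 were detected, with Mif at 277 ± 2.53 CPM and Cklf at 12.6 ± 0.127 CPM highest. Of 13 secreted partners 8 were detected, led by Spp1 (2933 ± 54.0 CPM) and Lcn2 (2803 ± 24.1 CPM). The granulocyte factor Csf3 stood at 187 ± 2.59 CPM and Il1b had no count.

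**Figure D4:**
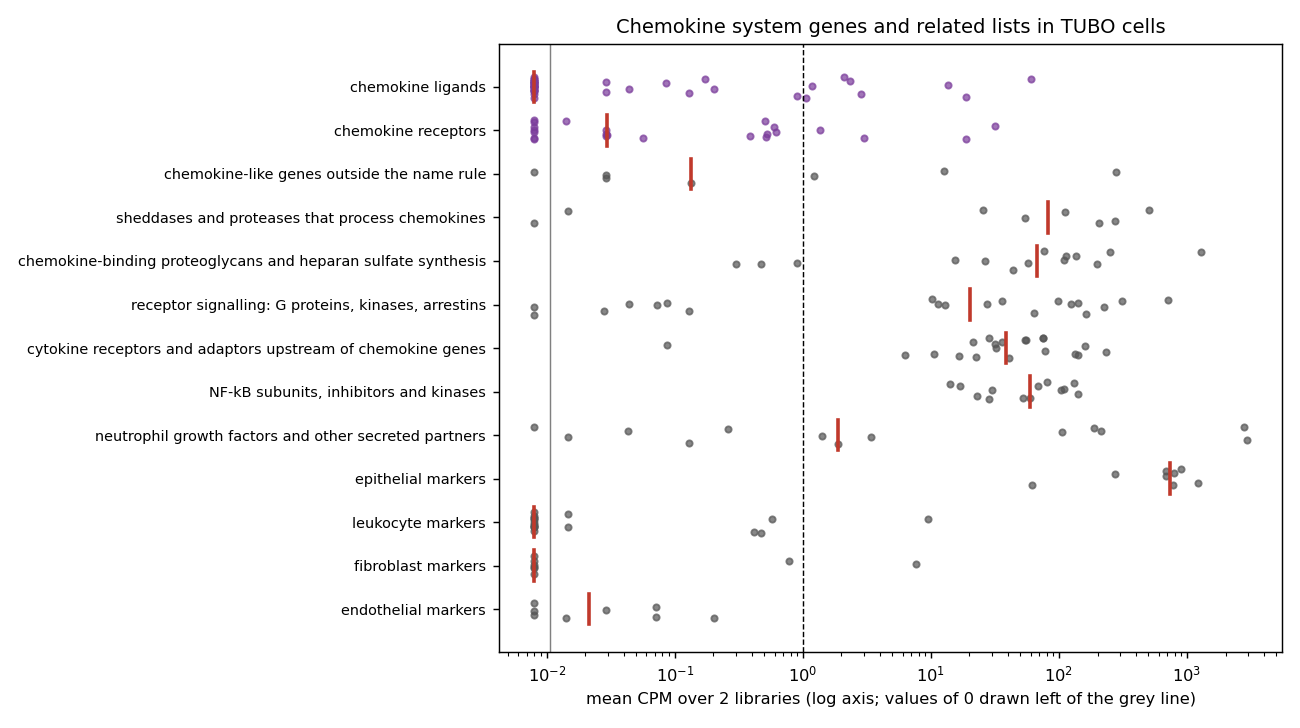
Mean CPM over 2 libraries of each gene (points, log axis) in the chemokine system (purple) and in related lists (grey). Red bars are list medians, the dashed line is 1 CPM and values of 0 are drawn left of the grey line. Most chemokine system genes lie left of 1 CPM, while all NF-kB genes lie right of 10 CPM.

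The label of the cells was checked against markers. All 8 epithelial markers were detected, led by Krt18 (1217 ± 15.2 CPM) and Epcam (898.1 ± 4.77 CPM), with a summed level of 5446 and 5321 CPM in replicates 1 and 2. Of 17 leukocyte markers 1 was detected, Cd68 (9.43 ± 0.116 CPM), and the sums were 11.03 and 10.82 CPM. Coro1a followed with 19 and 21 counts. The defining leukocyte genes Ptprc, Adgre1, Lyz2 and Cd3e had no count. Of 8 fibroblast markers Pdgfra alone was detected (7.64 ± 1.08 CPM), followed by Col1a1 with 37 and 18 counts, while Col1a2, Dcn and Lum had none. The sums were 7.91 and 8.93 CPM. No endothelial marker of 8 was detected, Pecam1 being highest with 6 and 8 counts, and the sums were 0.421 and 0.354 CPM. In bulk RNA, few cells with much of a transcript and many cells with little cannot be told apart.

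The libraries did not differ detectably in these genes. Of the 62 genes 19 passed the expression filter, and 0 differed between replicates 1 and 2 in a two-sided exact binomial test (adjusted p under 0.05 over 13336 genes), against 8.13% of all genes tested. At an unadjusted p under 0.05 there were 2, Ccl25 (p = 0.0286, adjusted p = 0.18 by the exact binomial test, log2 ratio of replicate 1 to replicate 2 -0.21) and Cxcr1 (p = 0.0294, adjusted p = 0.19 by the same exact test, log2 ratio -0.995). edgeR's exact test, which allows for dispersion, called 0 of the 19, with 1 at an unadjusted p under 0.05, against 0.142% of all genes tested (19 of 13336). Its dispersion was estimated from these same 2 libraries taken as 1 group. The difference under test was thus counted as noise, and this 0 adds no support. The other 17 ratios lay between -0.71 (Cxcr5) and 0.35 (Cxcl16) on the log2 scale, 9 of the 19 being above 0. By direction, the test called 4.46% of all genes as higher in replicate 1 and 3.67% as higher in replicate 2, and 0 of the 19. Differences of the size seen in the genes with few counts were not detectable at this depth.

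**Figure D5:**
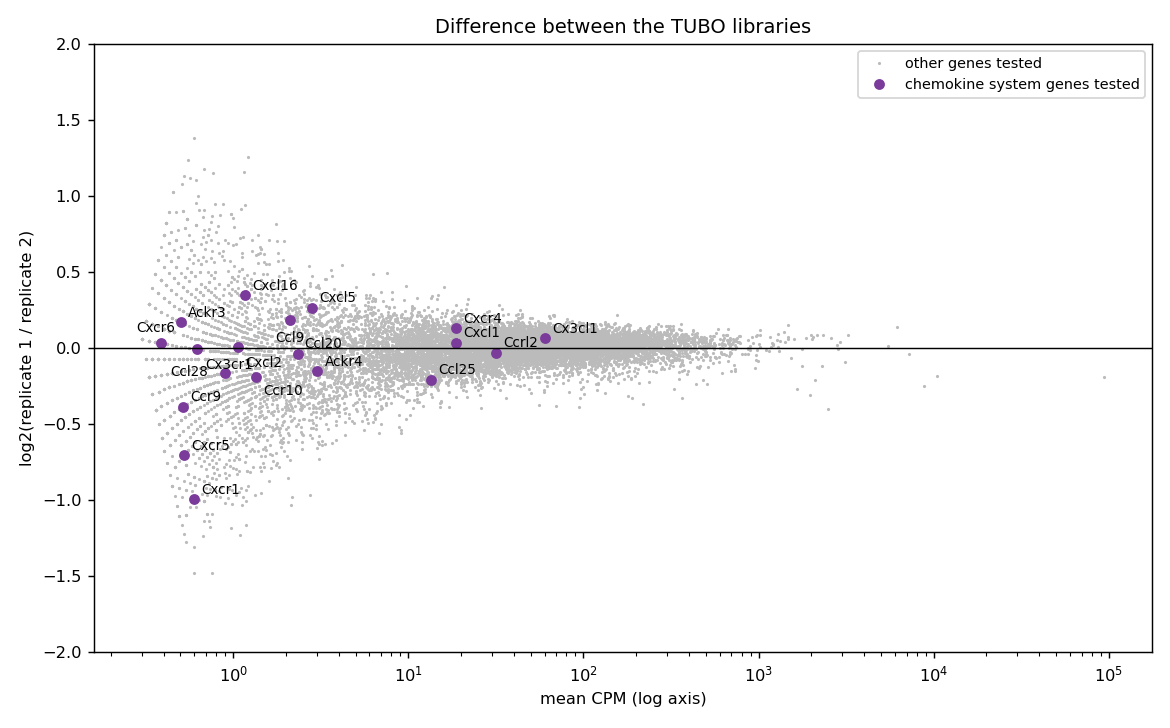
Log2 ratio of replicate 1 to replicate 2 against mean CPM (log axis) for the 13336 genes tested, grey, and the 19 chemokine system genes among them, purple and named. The purple points lie within the grey cloud, widest at low levels, where Cxcr1 is at -0.995.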

How the data were processed

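TUBO RNA was extracted on columns with DNase treatment and sequenced from stranded mRNA libraries (per the labels' protocols). Values are the authors' deposited counts, whole numbers for each symbol with no normalization. Build mm10 and the tools STAR 2.7.9a, featureCounts, FastQC 0.11.9, Cell Ranger 3.0.0 and R 4.1.1 stand in the submitters' processing notes without saying what each was used for. Of the annotation, the strand setting and the treatment of multiply matching reads, the sources used here say nothing.

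CPM used TMM factors (1.005 for replicate 1, 0.995 for replicate 2, edgeR 4.0.16, R 4.3.3). For TPM, counts were divided by the union of exons in GENCODE M21 (GRCm38), which gave a length for 98.3% of genes and 61 of the 62 members, Ccl27 being the exception. To find shared sequence, 50-base windows of each member's transcripts were looked up in all other transcripts. Promoters came from RefSeq (GRCm38.p6) and matched 46 of 62 genes by symbol, including 9 of the 12 detected. Intervals on counts are exact 95% Poisson intervals, and covered counting error only, since reads carry no molecular identifiers.

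Genes kept by filterByExpr were tested between libraries with an exact binomial test, adjusted by Benjamini-Hochberg. The test was tried first on simulated data with counting noise only. It recovered 97 of 100 genes changed 1.5 times and 100 of 100 changed 2.0 times, and called 11 unchanged genes. Genes with few counts were not among those changed, so power for most of the members tested was not tried. The named genes are all detected members, receptors with 10 or more counts and the 3 genes on either side of the 1 CPM line. Also named are partners in pairs with a detected side. Of other lists, the 2 highest members in CPM and those that had no count are named. Other genes, such as Mthfd2l, Tnfrsf1a, Tlr3, Nfkbia, Gpc4, Csf3, Rarres2 and Cmklr1, and the letter patterns were chosen after their values were seen. The members and lists were chosen with earlier results of these data known. Alternatives were other scalings (DESeq2 1.42.0 size factors, total counts, upper quartile), other minimums, pseudocounts and lengths, and each library left out. Some genes and a list of genes are not reported here.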

Additional observations from a re-analysis of the deposited data

How the results depend on the processing

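The number of detected ligands (8) and receptors (4) was the same with total counts, DESeq2 size factors, upper-quartile factors, totals without Gm26917 and Gm42418, and with either library left out (8 and 4). At a minimum of 5 CPM it was 3 ligands and 2 receptors, and at 0.5 CPM 9 and 5, while 1 TPM in place of 1 CPM gave 8 and 5. Pairs with both sides detected numbered 0 (0 to 0 with a library left out) 2 at 0.5 CPM, and 1 with pairs of the scavenger Ackr4 added. Leaving Gm26917 and Gm42418 out of the totals raised all 12 detected levels by 11.7%, and other scalings moved none beyond its SD. The median ligand level minus the median receptor level (-0.09) was -0.71 and -0.0182 with pseudocounts of 0.1 and 5 TPM, -0.0409 in CPM, -0.86 over detected genes, -0.0942 with means, -0.0621 with principal transcript lengths, and -0.0903 to -0.087 with a library left out. Of 12 ranks by TPM, 8 to 12 were kept with a library left out, 3 with principal transcript lengths and 7 in CPM. No alternative changed the count of 0 chemokine system genes that differed between libraries. The 0 of edgeR's exact test, which is among them, adds no support for the reason given above. The partner lists held 86 detected genes, and 86 to 87 with a library left out. The principal transcript lengths, the rank comparison and the settings for pairs and lists were chosen after seeing the data. No paired analysis was possible because the labels give 1 group. Depth limits the genes with few counts and the calls of those near 1 CPM. Unknown strand use, shared reads and transcript length are further limits.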
